A study of Homo sapiens with 3 samples.

Results

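Class I molecules of the major histocompatibility complex (MHC) were examined in HT29, an established human colorectal adenocarcinoma cell line, through every probe set annotated to the heavy chain genes HLA-B, HLA-C, HLA-E, HLA-F and HLA-G or to B2M, which encodes the light chain. These are 6 of the 19775 genes that had their own probe set, and 20 of the 54613 non-control probe sets of the array, with 3 for HLA-B, 4 for HLA-C, 3 for HLA-E, 3 for HLA-F, 4 for HLA-G and 3 for B2M, and 0 of the 20 were annotated to a second gene. Both groups are HT29 cells that had been through lentiviral transduction, one with an empty vector (1 array) and one with an expression construct for miR-146a (2 arrays). The sources used here do not give the promoter of the construct or say whether the lines are clones or pools. The array of the vector stands alone, and nothing in the labels tells whether separate cultures were behind the pair of miR-146a arrays. All p-values therefore rest on the spread within that pair, which may be technical.

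A class I molecule is a heavy chain paired with beta-2-microglobulin that carries a short peptide to the cell surface, where CD8 T cells and natural killer cells read it. HLA-B and HLA-C are classical heavy chains that present peptides from the cell's own proteins, HLA-E presents leader peptides of other class I chains to natural killer cell receptors, and HLA-F and HLA-G are non-classical chains with more restricted expression. In epithelial cells, transcription of the classical heavy chain genes is known to respond to interferons, to NF-kB and to the coactivator NLRC5. The microRNA miR-146a is best known as a brake on signalling from Toll-like and interleukin-1 receptors. Its mature sequence is shown because it is the agent delivered, from RefSeq (GRCh38.p14, chr5:160485372-160485393, plus strand), with the seed, bases 2 to 8, in capitals.
hsa-miR-146a-5p: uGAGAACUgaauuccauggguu

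The values are log2 signals made by RMA, a method that corrects background, normalizes between arrays and summarises the probes of each set. Median log2 signals over the non-control sets were 5.13 (vector), 5.14 (miR-146a replicate 1) and 5.12 (replicate 2). A probe set was tested when its mean signal was above the median of 5.13, which 27306 sets passed, among them all 20 class I sets. A signal can be compared between arrays for 1 probe set, but not between probe sets. Exactly equal values were common between any pair of arrays, at 16.9% of sets for the vector and replicate 1, 18.6% for the vector and replicate 2, and 19.3% for the 2 replicates. Of the class I sets, 4 were equal in both replicates, 1 in the vector and replicate 1, and 2 in the vector and replicate 2. Markers of colon epithelium were present, with 9 of 10 genes above the filter, 4 of them above the vector in both arrays and 4 below. EPCAM, an epithelial adhesion protein, read 12.95, 12.93 and 12.96 in the vector and replicates 1 and 2, while CDH17, an intestinal cadherin, read 5.86, 5.39 and 5.24, a difference of -0.54, and KRT20, an intestinal keratin, differed by -0.24. Of the 5 leukocyte markers measured 2 were above the filter, CD14 (6.15, 6.41 and 6.23) and ITGAM (5.41, 5.41 and 5.37), and PTPRC, the pan-leukocyte marker, was below it (3.43, 3.36 and 3.30). Of the 5 fibroblast markers 2 were above the filter.

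The heavy chain sets were mostly a little above the vector and the B2M sets were not. Of the 17 heavy chain sets, 13 were higher in both miR-146a arrays than in the vector array and 1 was lower in both, while of the 3 B2M sets 0 were above and 2 below. Over all tested sets, 36% were above the vector in both arrays and 33.1% below in both, so that 69.1% had both replicates on 1 side of the single vector array. The median log2 difference was 0.09 over the heavy chain sets, 0.07 over all 20 sets and 0.00 over all tested sets. The sizes were small: all 20 mean differences lay between -0.38 and 0.37, within the range of -0.45 to 0.41 that held the central 95% of all tested sets, and 10 of the 20 were smaller than 0.1. With 15 of the 20 sets, both replicates differed from the vector in 1 direction by more than they differed from each other. Of the 15, 13 were upward and 2 downward, and 46.9% of all tested sets met this criterion in either direction. The 15 include the 4 sets with exactly equal replicates, which meet it at any difference from the vector, however small.

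**Figure D1:**
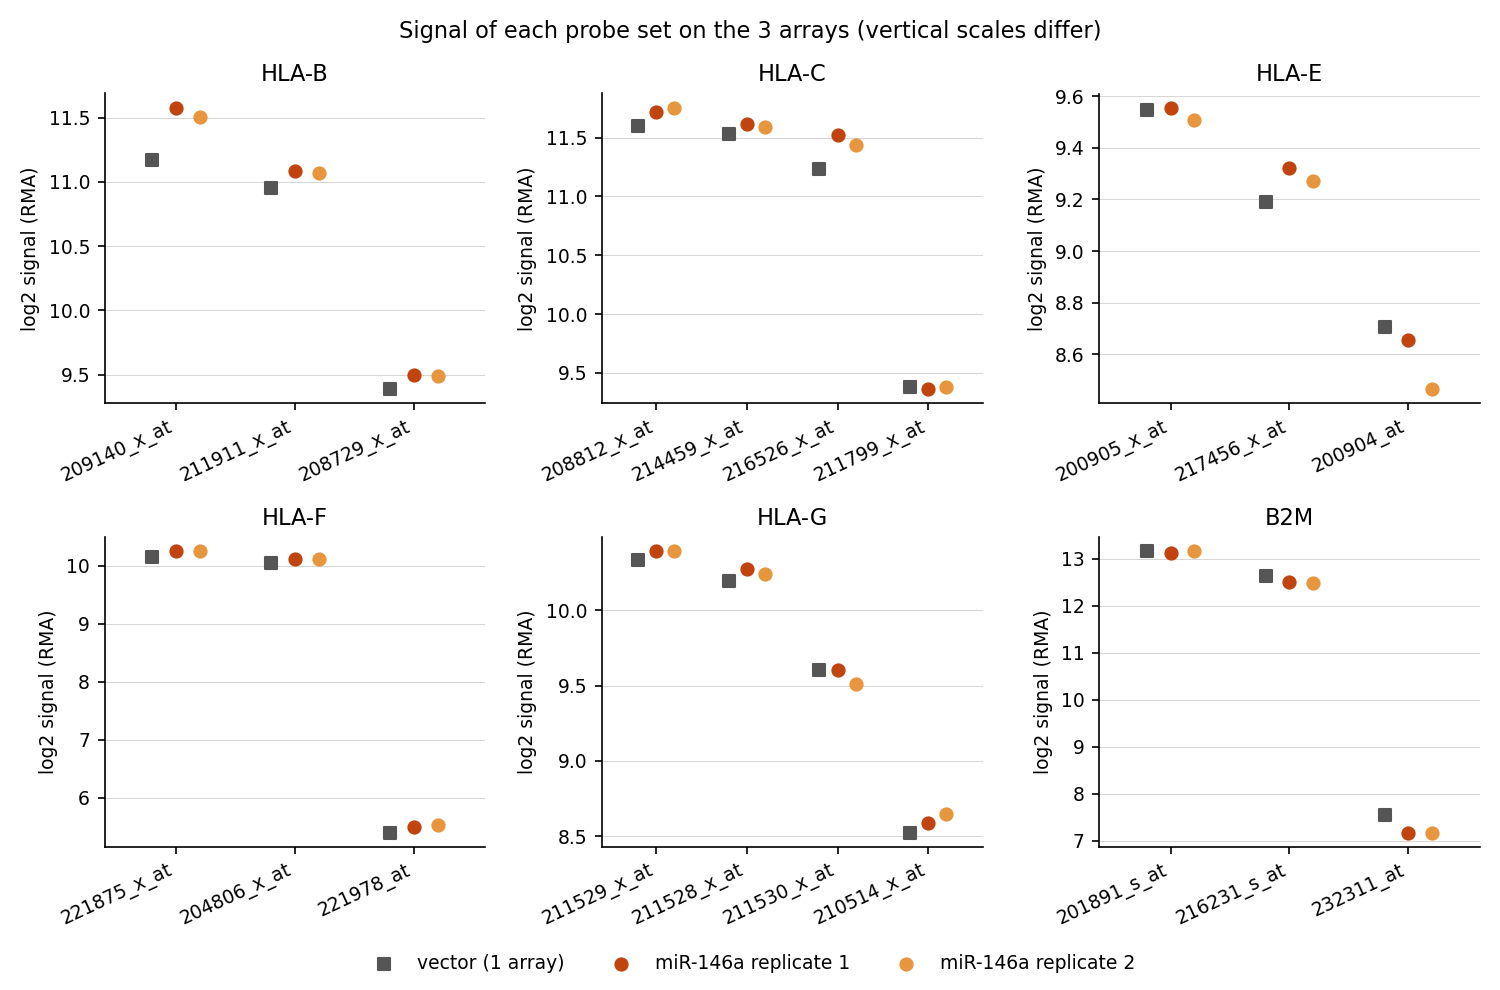
The log2 signal (vertical axis, scales differ between panels) of each of the 20 probe sets is plotted for the vector array (square) and the 2 miR-146a arrays (circles), 1 panel per gene. Both miR-146a arrays sit above the vector in all 3 HLA-B sets, and none of the B2M sets has both above it.

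The direction of the heavy chains rests on probe sets that can read more than 1 transcript. Of the 20 sets 15 have names ending in _x_at, the manufacturer's mark for sets with probes that also match other sequences, and all 15 belong to the heavy chains, so their values are not independent and cannot be assigned to 1 HLA gene with certainty. The 15 had a median difference of 0.09, with 12 above the vector in both arrays and 0 below. The 5 others, those of B2M with 1 each of HLA-E and HLA-F, had a median of -0.14, with 1 above and 3 below. With B2M left out as well, the median was -0.016 over the 2 remaining heavy chain sets, a comparison chosen after the values were seen. Over the 2715 tested sets ending in _x_at in the whole table, the median was 0.00, 33.8% were above the vector in both arrays and 29.7% below.

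Limma's moderated test over all 27306 sets called 0 sets as higher and 0 as lower (0% each) at an adjusted p threshold of 0.05. None of the 20 class I sets passed, but the lowest limma adjusted p of any tested set was 0.131. Not passing this fit therefore does not set the class I sets apart from others. A count of 0 from it, here or below, does not show that sets did not differ. An unadjusted p under 0.05 was found for 8 of the 20, against 23.4% of all tested sets. These 8 include the 4 sets with exactly equal replicates, whose own replicate spread was 0. With the variance prior taken only from sets whose 2 miR-146a values differ, limma called 1130 sets higher (4.14%) and 1306 lower (4.78%), among them 1 class I set higher, of HLA-B, and 1 lower, of B2M. These counts, 1 of 20 each, are close to the shares over all sets. Both tests take the single vector array to vary like the miR-146a replicates. For any single value an exact permutation of 1 array against 2 cannot give a two-sided p below 0.333.

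Promoter sequences are shown for HLA-B and HLA-C, to which the heavy chain sets with the highest differences were annotated, beside HLA-F, HLA-G and B2M. They let the elements through which class I genes are known to be switched on be compared with the differences described below. They come from RefSeq's annotation (GRCh38.p14), cover 250 bases before to 50 after an annotated start, and are the reference, not the alleles of HT29. A promoter sequence was available here for 5 of the 6 genes, and not for HLA-E. Capitals mark matches, on either strand, to GAAANNGAA, from the core of the interferon-stimulated response element, a variant of that core, GAANNGAAA, the kappa-B letters GGGATTCNC, the CRE-like site TGACGC and the CCAAT box that NF-Y binds. The variant and the kappa-B letters were chosen with class I promoters in view. HLA-B is at chr6:31357130-31357429 (minus strand), HLA-C at chr6:31272043-31272342 (minus), HLA-F at chr6:29723184-29723483 (plus), HLA-G at chr6:29827575-29827874 (plus; the one of its 3 listed starts most like the other genes) and B2M at chr15:44711267-44711566 (plus).
HLA-B: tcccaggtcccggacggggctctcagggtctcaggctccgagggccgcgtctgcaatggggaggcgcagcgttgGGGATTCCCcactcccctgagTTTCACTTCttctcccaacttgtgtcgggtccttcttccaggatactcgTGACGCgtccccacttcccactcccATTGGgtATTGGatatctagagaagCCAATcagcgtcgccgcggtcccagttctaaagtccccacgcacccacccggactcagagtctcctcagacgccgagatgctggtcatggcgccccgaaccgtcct
HLA-C: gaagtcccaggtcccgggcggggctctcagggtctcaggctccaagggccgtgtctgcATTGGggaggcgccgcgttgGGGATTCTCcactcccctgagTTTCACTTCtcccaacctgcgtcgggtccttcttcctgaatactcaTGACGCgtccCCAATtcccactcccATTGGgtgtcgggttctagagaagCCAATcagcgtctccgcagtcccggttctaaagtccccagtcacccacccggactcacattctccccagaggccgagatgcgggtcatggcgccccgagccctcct
HLA-F: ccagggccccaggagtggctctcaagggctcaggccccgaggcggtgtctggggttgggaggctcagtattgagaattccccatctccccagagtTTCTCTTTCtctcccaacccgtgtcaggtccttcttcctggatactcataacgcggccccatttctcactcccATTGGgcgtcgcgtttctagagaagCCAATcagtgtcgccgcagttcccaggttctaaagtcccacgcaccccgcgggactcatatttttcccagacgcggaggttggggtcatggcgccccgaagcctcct
HLA-G: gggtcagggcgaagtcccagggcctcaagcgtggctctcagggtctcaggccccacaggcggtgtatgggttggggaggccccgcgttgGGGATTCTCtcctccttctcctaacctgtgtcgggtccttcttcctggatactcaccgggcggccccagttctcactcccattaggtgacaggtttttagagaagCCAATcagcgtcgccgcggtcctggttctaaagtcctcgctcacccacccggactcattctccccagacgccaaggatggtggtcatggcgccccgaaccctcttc
B2M: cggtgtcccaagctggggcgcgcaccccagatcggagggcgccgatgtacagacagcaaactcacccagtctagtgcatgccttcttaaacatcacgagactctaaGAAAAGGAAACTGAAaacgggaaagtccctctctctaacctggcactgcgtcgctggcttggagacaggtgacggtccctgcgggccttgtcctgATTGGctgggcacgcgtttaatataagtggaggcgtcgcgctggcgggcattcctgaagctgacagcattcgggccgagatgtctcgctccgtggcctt

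The HLA-B and HLA-C windows were 88.5% identical in a global alignment, gaps counted as differences. HLA-F was 79.7% and HLA-G 74.5% identical to HLA-B, and B2M 49.4%. HLA-B and HLA-C each hold 1 kappa-B match (328 of 35116 promoters of this length do, or 0.934%), 1 CRE-like match (9.14% of promoters) and 1 match to the variant interferon core (7.66%). HLA-F holds 1 match to the interferon core itself and B2M holds 2 that overlap each other (8.11% of promoters hold any). Of these elements HLA-G holds 1, a kappa-B match, in this window. The CCAAT box is found 3 times in HLA-B, 4 in HLA-C, 2 in HLA-F and 1 each in HLA-G and B2M, and 34.6% of promoters hold at least 1. No other matches overlapped. A match is only a run of letters, and the arrays did not measure binding.

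**Figure D2:**
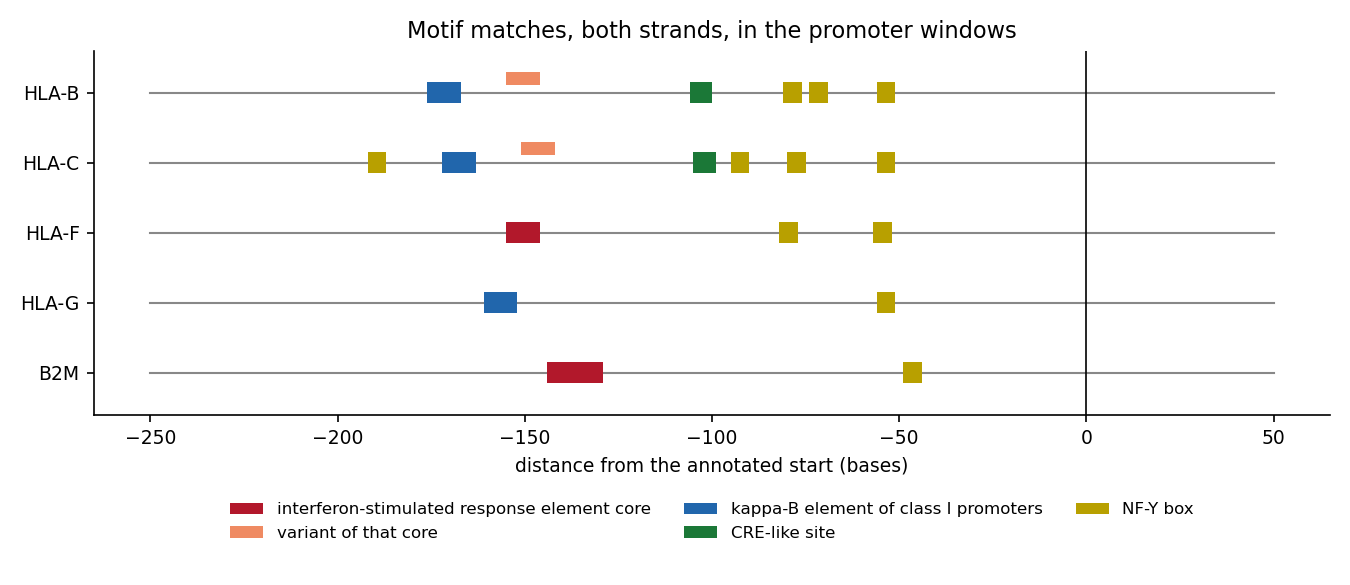
Matches to each element (coloured bars) are placed by distance in bases from the annotated start (horizontal axis, 0 at the start) in the window of each gene. HLA-B and HLA-C share the kappa-B, variant interferon and CRE-like matches at nearly the same distances, and B2M has the interferon core and 1 NF-Y box.

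The heavy chain set with the highest difference was 209140_x_at, which is annotated to HLA-B but carries the mark for probes that match other sequences. This set read 11.17 in the vector and 11.58 and 11.51 in replicates 1 and 2. Both replicates lay above the vector by several times their own gap of 0.07. The mean was 11.54 ± 0.05 (SD, n = 2), a difference of 0.37 on the log2 scale or 1.30-fold, with limma's adjusted p = 0.179 (SE 0.05) and, with the prior from unequal replicates, adjusted p = 0.0279 (SE 0.10). Over the 8 limma fits without that prior the adjusted p ran from 0.144 to 0.230. Of all tested sets, 3.21% had a higher difference.

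The other HLA-B sets were nearer to the vector. Set 211911_x_at read 10.95 in the vector and 11.08 and 11.07 in the replicates, a difference of 0.13 or 1.09-fold. Set 208729_x_at read 9.39 against 9.50 and 9.49, a difference of 0.11 or 1.08-fold. In both, the replicates differed from each other by no more than 0.01. The 3 sets annotated to HLA-B therefore gave 1 direction and sizes that differed by a factor of over 3 on the log2 scale. Neither passed limma (adjusted p = 0.146 and adjusted p = 0.148) nor the fit with the prior from unequal replicates (adjusted p = 0.553 and adjusted p = 0.633).

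HLA-C, the heavy chain read chiefly by inhibitory receptors of natural killer cells, was above the vector in 3 of its 4 sets. Set 216526_x_at read 11.24 in the vector and 11.52 and 11.44 in the replicates, a difference of 0.24 or 1.19-fold. It passed neither test (limma's adjusted p = 0.276, and adjusted p = 0.159 with the prior from unequal replicates). Set 208812_x_at read 11.60 against 11.72 and 11.76, a difference of 0.14 or 1.10-fold. Set 214459_x_at read 11.53 against 11.62 and 11.59, a difference of 0.07 or 1.05-fold. In these 3 of 4 sets both replicates lay on 1 side of the vector, as in 69.1% of all tested sets. The remaining set, 211799_x_at, read 9.38 in the vector, 9.36 in replicate 1 and exactly the vector's value in replicate 2.

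The 3 sets of HLA-E gave 3 different pictures. Set 200905_x_at read 9.55 in the vector and 9.56 and 9.51 in the replicates, on both sides of the vector. Set 217456_x_at read 9.19 against 9.32 and 9.27, a difference of 0.10 or 1.08-fold. The set without the cross-matching mark, 200904_at, read 8.71 against 8.65 and 8.46, a difference of -0.15. Its replicates differed by 0.19, the largest gap between replicates among the 20 sets, so the lower mean was smaller than the replicate gap (limma's adjusted p = 0.671).

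HLA-F, which is known to reach the surface of activated cells also without peptide, was above the vector in all 3 sets by small and similar amounts. Sets 221875_x_at and 204806_x_at held exactly equal values in both replicates, at 10.25 against 10.15 and at 10.12 against 10.05, differences of 0.09 and 0.07. Set 221978_at, which lacks the cross-matching mark and lies just above the filter, read 5.40 in the vector and 5.49 and 5.54 in the replicates, a difference of 0.12 or 1.08-fold. None passed limma (adjusted p from 0.151 to 0.291). HLA-F-AS1, a long non-coding RNA whose gene overlaps HLA-F in RefSeq and which was looked at after its values were seen, read 8.21 in the vector and 8.01 in both replicates through set 222279_at, a difference of -0.21. Its other set, 1562381_at, was below the filter at 2.62, 2.62 and 2.58.

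HLA-G, the heavy chain known best from the placenta, had 4 sets, all with the cross-matching mark, so signal in them does not show that HT29 cells transcribe it. Set 210514_x_at read 8.52 in the vector and 8.59 and 8.65 in the replicates, a difference of 0.10. Sets 211528_x_at and 211529_x_at were above the vector by 0.06 each, and 211530_x_at was equal to it in replicate 1 and lower by 0.10 in replicate 2. The pseudogene HLA-J, also looked at after its values were seen, read 9.42 on all 3 arrays through its set 217436_x_at.

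B2M, the light chain that all these heavy chains share and need to reach the surface, was not higher in any set. Set 201891_s_at read 13.16 in the vector, 13.13 in replicate 1 and exactly the vector's value in replicate 2. Set 216231_s_at read 12.63 against 12.51 and 12.48, a difference of -0.14 or 1.10-fold lower, beyond the replicate gap of 0.03 but with limma's adjusted p = 0.205 (adjusted p = 0.480 with the prior from unequal replicates). Set 232311_at read 7.56 in the vector and 7.17 in both replicates, a difference of -0.38 or 1.30-fold lower.

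This lowest set had limma's adjusted p = 0.131 and, with the prior from unequal replicates, adjusted p = 0.0230 (SE 0.10), and 3.73% of all tested sets had a lower difference. Over the 7 limma fits without that prior its adjusted p ran from 0.0534 to 0.155. The 3 sets of B2M thus ranged from -0.01 to -0.38, and which part of the transcript each reads was not analysed here. In the same arrays the control sets at the 5′ ends of the reference transcripts ACTB and GAPDH were lower than in the vector, by -0.29 and -0.18 for ACTB and by -0.32 and -0.30 for GAPDH in replicates 1 and 2. Their 3′ sets had mean differences of 0.04 and -0.02. The part of this in the B2M and heavy chain values was not tested.

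**Figure D3:**
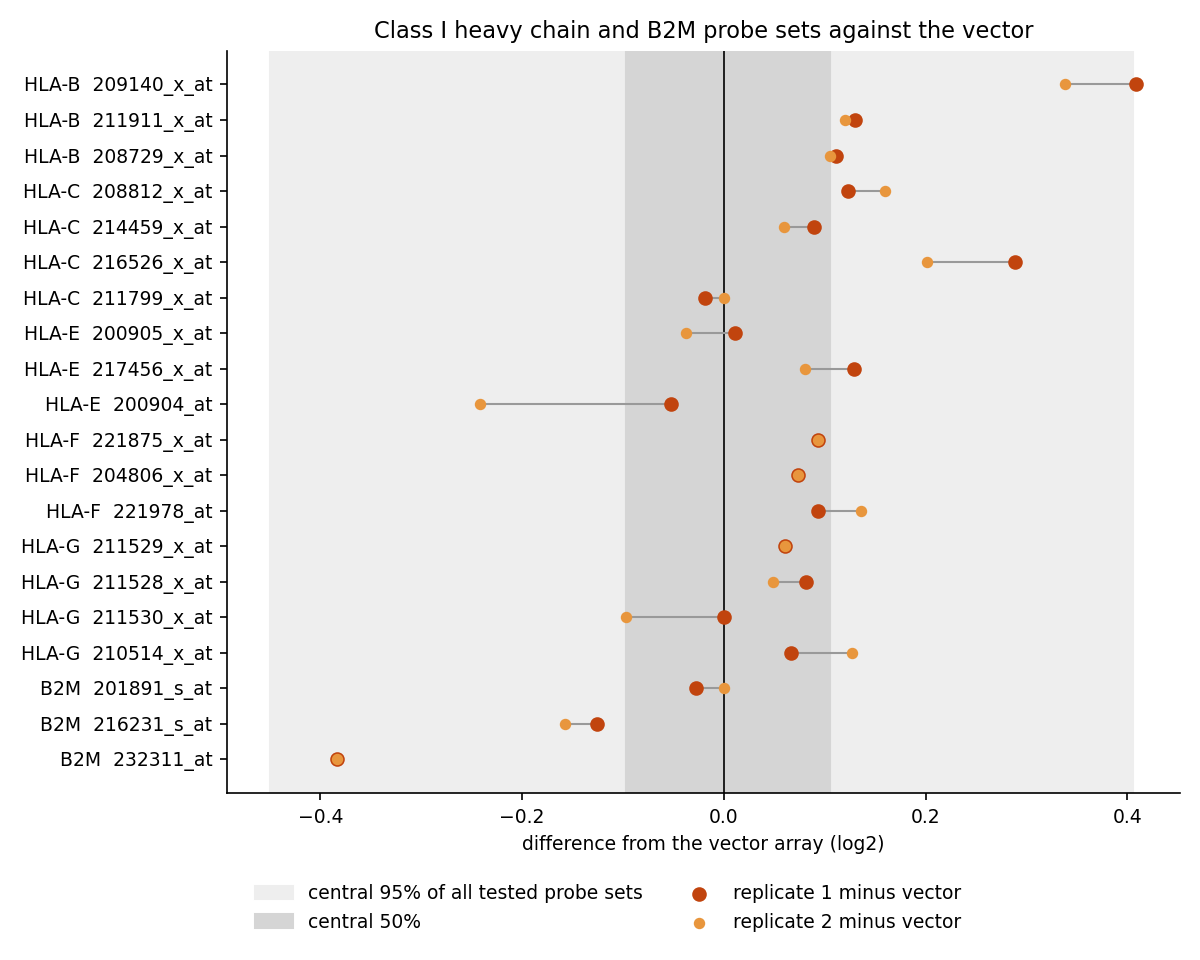
Differences from the vector array (log2, horizontal axis) are plotted for replicate 1 (large points) and replicate 2 (small points) of each probe set, over the central 95% (light band, -0.45 to 0.41) and central 50% (dark band) of the mean differences of all 27306 tested sets. HLA-B 209140_x_at and B2M 232311_at lie near the upper and lower edges of the light band, and most others lie in or beside the dark band.

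Genes that supply and load class I peptides included larger differences than the heavy chains. The 14 genes were listed with earlier results of these data known. Of the 14 listed, 13 had a probe set of their own and 12 were above the filter, with 9 above the vector in both arrays (36% of all tested sets were), 3 below (33.1%) and a median of 0.17 for the set of highest signal per gene. PSMB9, an immunoproteasome subunit, read 5.51 in the vector and 6.86 and 6.66 in the replicates, a 2.37-fold difference. PSMB8, its partner subunit, was 1.59-fold higher, TAP1, a subunit of the peptide transporter, 1.42-fold, and PSMB10, a further inducible subunit, 1.16-fold. TAP1 held exactly equal values in both replicates, at 7.70 against 7.20 in the vector, so its own replicate spread was 0. Limma called 0 of the 12, with 5 at an unadjusted p under 0.05 (23.4% of all tested sets), and with the prior from unequal replicates 3, PSMB9, PSMB8 and TAP1, passed as higher (4.14% of all tested sets). The 3 genes below the vector were the trimming peptidase ERAP1, at -0.14, the chaperone PDIA3, at -0.11 (its other sets at 0.00 and 0.01), and the chaperone CANX, at -0.05 (its 3 other sets from -0.47 to 0.04). Among the 9 above, TAPBP was at 0.04 but its other set at -0.23. ERAP2 was at 0.04 and its 2 other sets ranged from -0.02 to 0.09. The other sets of TAP2 (0.13) and CALR (0.20 and 0.33) had positive mean differences.

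Factors that bind or drive class I promoters were on a list of 16, chosen with earlier results of these data known. Of these, 13 had a set and 12 were above the filter, with 8 above the vector in both arrays (36% of all tested sets), 1 (NFYB, at -0.04) below (33.1%) and a median of 0.20. The 2 other sets of NFYB were at -0.23 and -0.10. IRF9, the DNA-binding part of the interferon-activated complex ISGF3, read 7.26 in the vector and 7.84 and 7.88 in the replicates, a 1.51-fold difference. RFXANK, a subunit of the RFX complex, was 1.31-fold higher, and the NF-Y subunits NFYC and NFYA were 1.25-fold and 1.15-fold higher, though their other sets ranged from -0.03 to 0.11 and from -0.13 to 0.16. Limma called 0 of the 12 (6 at an unadjusted p under 0.05, against 23.4% of all tested sets), and 2, IRF9 and RFXANK, passed as higher with the prior from unequal replicates (4.14% of all tested sets). NLRC5, the class I coactivator, named here for its role and after its values were seen, did not reach the filter, with 4.65 in the vector array and 5.26 and 4.75 in replicates 1 and 2.

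Class I-like molecules outside the peptide-presenting family include ligands of natural killer cell receptors. This list of 13 was also chosen with earlier results of these data known. Of 13 listed, 11 had a set and 7 were above the filter, with 1 above the vector in both arrays (36% of all tested sets), 4 below (33.1%) and a median of -0.14. ULBP2, a stress-induced ligand of the activating receptor NKG2D, read 6.96 in the vector and 6.56 and 6.66 in the replicates, a difference of -0.35, and its other set differed by -0.32. The related ligand MICB differed from the vector by -0.46 in replicate 1 and -0.19 in replicate 2, and MICA by -0.02 and -0.16. AZGP1, a secreted class I-like glycoprotein, differed by -0.25 and -0.09. In MICB, MICA and AZGP1 the size depended on the replicate by over 1.5 times. Limma called 0 of the 7, with 0 at an unadjusted p under 0.05, and 1, ULBP2, passed as lower with the prior from unequal replicates, as did 4.78% of all tested sets (adjusted p = 0.0424, against 0.178 to 0.308 over the 8 limma fits without that prior). Of 7 MHC class II genes, 3 were above the filter, and the signals of the 7 lay between 3.76 and 6.04. HLA-DRA was below the filter at 4.67 on all 3 arrays, and CD74, the invariant chain, read 5.81, 5.90 and 6.04.

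**Figure D4:**
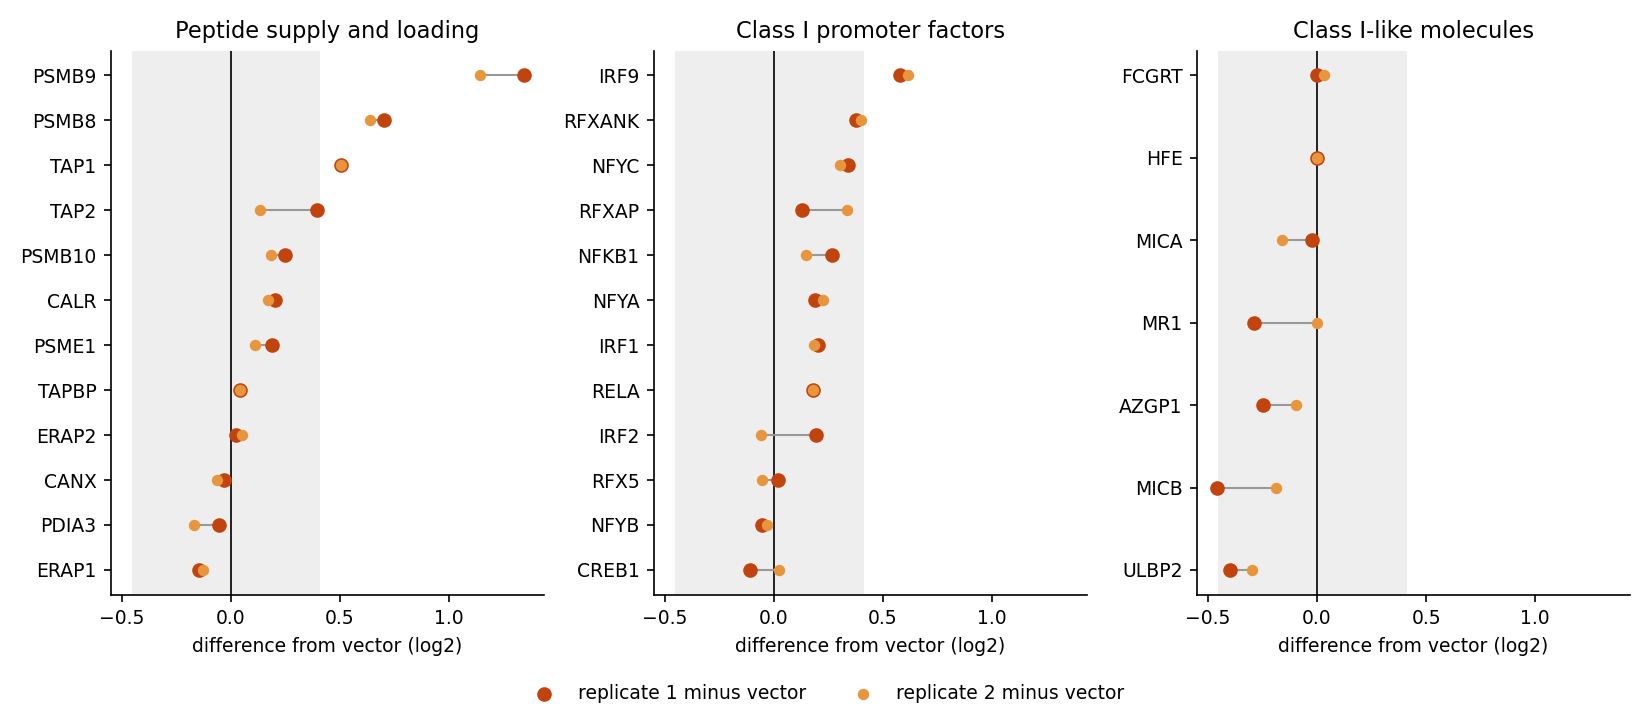
Differences from the vector (log2, horizontal axis) are plotted for each gene above the filter in the 3 lists, replicate 1 as large and replicate 2 as small points, over the central 95% of all tested sets (band). PSMB9, PSMB8, TAP1 and IRF9 lie to the right of the band in both replicates, and no class I-like molecule lies to the right of 0.1.

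The genes whose pair of differences lay nearest to that of HLA-B 209140_x_at, by Euclidean distance over replicates 1 and 2, were KLK6, CAPN15, CD83, UTP15 and JPH1, at distances between 0.0021 and 0.011. Their differences were between 0.37 and 0.38. With only 2 differences per gene such neighbours are common, and 341 of the 12438 other genes lay within 0.1 of HLA-B.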

How the data were processed

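RNA from the transduced cells was converted, per the labels' protocols, to biotinylated cRNA and read on Affymetrix arrays, 1 of vector and 2 of miR-146a cells, with groups taken from the labelled transduction. The deposited table holds log2 values for 54675 probe sets, made by the authors with RMA per the submitters' processing notes; its version, and whether other arrays were processed alongside, are not stated there. No detection calls were used, and the number of arrays limits the precision.

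Gene names of probe sets come from the platform's annotation. Differences are the miR-146a mean minus the vector, and SDs are of the 2 miR-146a arrays. Probe sets above the median mean signal of 5.13 were fitted with limma 3.58.1 (R 4.3.3) in a two-sided test, and p-values were adjusted over all of them by Benjamini-Hochberg, with a threshold of 0.05. The fits were tested on simulated data, in which the vector array varied like the replicates and all sets shared 1 spread. Exactly equal values were put only between the 2 miR-146a arrays, as often as in the data. Equal values between the vector and a replicate were not simulated, so recovery in the real arrays may differ. In this setting limma's plain prior missed the changed sets. The prior from unequal replicates recovered most of them along with some false calls. A count of 0 from the plain prior therefore does not show that sets did not differ. For list genes the set with the highest mean signal was used. Members and lists were chosen with earlier results of these data known. The genes named are all members, up to 4 per list by the smaller of the 2 array differences, and the 5 nearest to HLA-B. PDIA3, ERAP1, CANX, TAPBP, ERAP2, TAP2, CALR, NFYB, the marker genes, NLRC5, HLA-J and HLA-F-AS1 were added for their role or after their values were seen. Alternatives were other filters, variance priors and normalizations, 1 set per gene, and leaving out cross-matching sets or 1 replicate. Figures were drawn with matplotlib 3.10.9.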

Additional observations from a re-analysis of the deposited data

How the results depend on the processing

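The median difference of the class I sets, 0.07, turned to -0.14 without the sets ending in _x_at, and the heavy chain median, 0.09, turned to -0.016 without them. It stayed between 0.07 and 0.08 under the other filters, cyclic loess or quantile normalization, 1 value per gene, and without replicate 1 (0.07) or replicate 2 (0.08). Limma called 0 sets, overall and in each list, in the planned fit and with no filter, a filter at percentile 70, an intensity trend, a robust prior, either normalization or 1 set per gene. Only the prior from unequal replicates made calls, 2436 sets in all. Of the 27306 tested sets, 4.14% were called higher and 4.78% lower. Among the 20 class I sets it called 1 in each direction, close to those shares. Of the genes above the filter, it called 3 of 12 of peptide supply and loading, 2 of 12 promoter factors and 1 of 7 class I-like molecules. Of 37 single sets named under the rule, 1 changed sign in any alternative: HLA-E 200905_x_at, at -0.013, was at -0.037 without replicate 1 and at 0.011 without replicate 2. Leaving out a replicate leaves 1 array against 1 with no residual degrees of freedom, so it gives values and no test. No paired analysis was possible because the vector group has 1 array.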
